A study of Mus musculus with 4 samples.

Results

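The chemokine receptor genes Cxcr3, Cxcr4, Cxcr5, Cxcr6, Ccr2, Ccr4, Ccr6 and Ccr8, were followed in activated and resting regulatory T cells (Treg) from mouse spleen. They were taken by symbol from a deposited table of read counts for 38924 Ensembl genes, and all 8 of them were found and passed the filter on low counts. Bulk RNA sequencing had been done on 2 activated and 2 resting samples, sorted as CD4+Foxp3+ cells and described as coming from independent animals. The sources used here give no strain, genotype, age, sex or treatment. The labels print the same further surface gate for both groups.

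Chemokine receptors are membrane proteins that couple to inhibitory G proteins and steer cells along gradients of secreted chemokines. Naive and resting T cells keep to lymphoid organs, whereas activated T cells take up receptors for inflamed tissue, for B cell follicles or for barrier organs such as skin and gut. Treg are known to use the same receptors as the conventional T cells beside which they act.

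The 4 libraries are called activated A, activated B, resting A and resting B. The letters were given here, in the order of the count columns. They held between 20282062 and 31851982 counts, so that 1 CPM (a count scaled to library size, with trimmed-mean factors, TMM) stood for 20.3 to 30.6 counts. Counts came from amplified libraries without molecular identifiers, so counting intervals cover counting error only. Log2 fold changes are activated over resting with their standard error (SE), from edgeR's quasi-likelihood test, and p-values were adjusted over all 14235 genes tested. Cd44, a surface protein of activated T cells, had 329 and 335 CPM in the activated libraries, against 145 and 213 CPM in the resting libraries (DESeq2 adjusted p = 0.0417). Foxp3, which defines Treg, was between 36.7 and 37.5 CPM in the activated libraries and between 35.1 and 38.8 CPM in the resting libraries.

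Most of the receptors, those of inflammation and those of the follicle alike, had higher values in the activated libraries, with ratios of the group means from 1.34 for Cxcr4 to 8.49 for Cxcr6. In 7 of the 8 genes both activated libraries lay above both resting libraries, which was the case for 2820 of all 14235 genes tested (19.8%). All 8 log2 fold changes were above 0, with a median of 1.54, while the median over all genes tested was -0.0072. By edgeR with adjustment, none of the 8 passed the threshold of 0.05, and neither did any other gene (0%). DESeq2 on the same counts called 4 of them higher, Cxcr6, Cxcr5, Ccr6 and Cxcr3, at a threshold at which it called 324 of 13959 genes higher (2.32%). The same 4 genes had an unadjusted edgeR p under 0.05, as did 897 of all genes tested in the higher direction (6.30%); 371 (2.61%) had one in the lower direction, but none of the 8. The DESeq2 calls depended on which libraries were used: without resting A only Cxcr3 and Cxcr6 were called, and without resting B all but Cxcr4. With either activated library left out, Cxcr5, Cxcr6 and Ccr6 were called. The RNA is from bulk samples, in which more cells of a type and more RNA per cell cannot be told apart. Markers of plasmacytoid dendritic cells were also higher in the activated libraries, with a summed 1298 and 471 CPM against 187 and 207 CPM in the resting libraries; their values and those of other cell types are given further on.

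**Figure D1:**
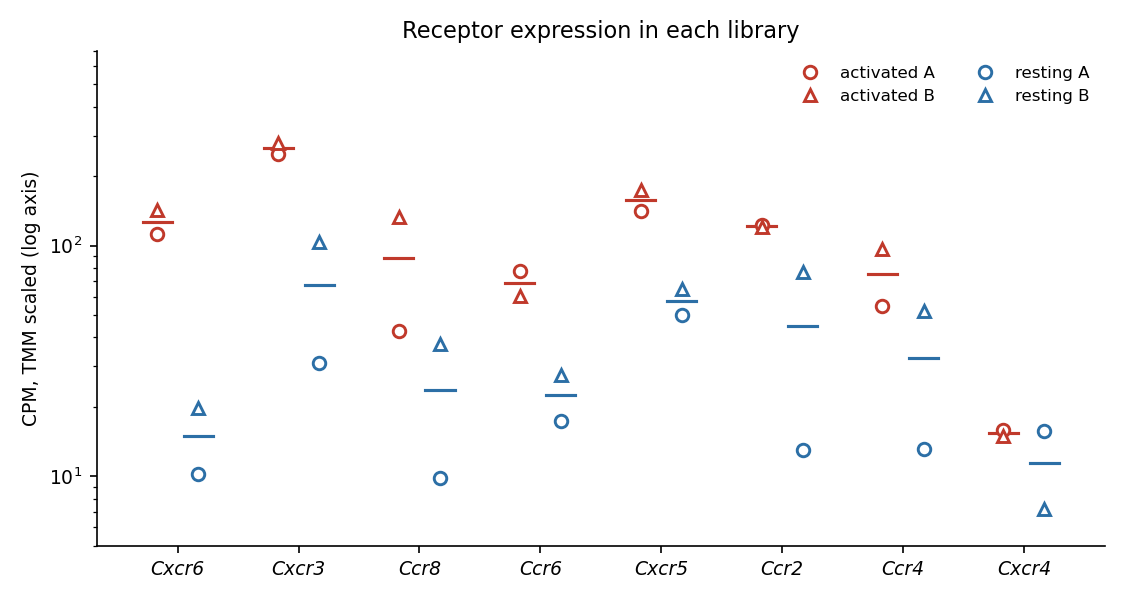
TMM-scaled CPM (log axis) of the 8 receptor genes in each of the 4 libraries; each point is 1 library, the activated libraries standing left of the resting libraries. Cxcr6 has the widest distance between the groups, with 112 and 142 CPM in the activated libraries and 10.3 and 19.7 CPM in the resting libraries, and Cxcr4 is the gene whose groups overlap.

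Cxcr6, the receptor for the membrane-bound chemokine Cxcl16 and a marker of T cells in liver, lung and inflamed tissue, had the largest fold change of the 8. It was counted 3427 times in activated A and 2884 times in activated B, against 211 times in resting A and 604 times in resting B. This came to 127 ± 21.4 CPM in activated Treg and 14.99 ± 6.69 CPM in resting Treg (SD, n = 2 each), a ratio of means of 8.49. The groups were far apart: activated A, the lower of its group, was 5.69 times resting B, the higher of its group, with a 95% counting interval of 5.21 to 6.21. The log2 fold change was 3.07 ± 0.37 (SE), with an unadjusted edgeR p of 0.000394 and an adjusted p of 0.267, which was also the smallest adjusted p in the table. DESeq2 gave an adjusted p of 1.26e-12. With edgeR, Cxcr6 passed when resting A was left out (adjusted p = 0.00101) and when resting B was left out (adjusted p = 0.0470), but not without activated A (0.219) or activated B (0.0922). Of all genes tested, 201 had a log2 fold change at least as large and 13 an unadjusted p at least as small, Cxcr6 itself being counted in both. The regularized log2 values deposited by the authors were 11.3 and 11.6 in activated Treg, against 8.19 and 9.04 in resting Treg.

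Cxcr6 spans 123806475 to 123811760 of chromosome 9 in mm10 (plus strand), inside the span of Fyco1 on the opposite strand, with which it shares 0 exonic bases. The library kit does not mark the strand, and Fyco1 itself was counted 2941 and 977 times in the activated libraries and 1612 and 1756 times in the resting libraries, a different order of libraries from that of Cxcr6.

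Cxcr3 binds the interferon-induced chemokines Cxcl9 and Cxcl10 and is a receptor of Th1 cells and of Treg that express T-bet. It had 249 CPM in activated A and 279.9 CPM in activated B, against 30.9 CPM in resting A and 104 CPM in resting B. The activated libraries were close to each other and both above the resting ones, but the resting libraries differed 3.37-fold between themselves, against a ratio of group means of 3.91. Its log2 fold change was 1.96 ± 0.58, with an adjusted edgeR p of 0.406 and an adjusted DESeq2 p of 0.00739. Cxcr3 spans 101731535 to 101734269 of chromosome X (minus strand).

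Ccr2, the receptor for Ccl2 through which monocytes and effector T cells enter inflamed tissue, repeated this pattern with less distance between the groups. It had 123 CPM in activated A and 119.9 CPM in activated B, against 13.0 CPM in resting A and 76.7 CPM in resting B. Resting B was 5.89 times resting A, more than the 2.71-fold ratio of the group means. The log2 fold change of 1.43 ± 0.78 did not pass (edgeR adjusted p = 0.759, DESeq2 adjusted p = 0.379). Without resting B it was 3.21, with an adjusted edgeR p of 0.0507, and without resting A it was 0.67. Ccr2 spans 124101950 to 124113557 of chromosome 9 (plus strand). It has close paralogues in the same gene cluster, and the sources do not state how reads that match more than 1 of them were assigned.

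Of the receptors of the B cell zone, Cxcr5 and Ccr6 had the tightest replicates. Cxcr5, the receptor for Cxcl13 that brings follicular helper and follicular regulatory T cells into the follicle, was counted 4324 times in activated A and 3545 times in activated B, against 1033 times in resting A and 1981 times in resting B. In CPM this was 141 and 175 in the activated libraries, against 50.2 and 64.7 in the resting libraries. The resting libraries differed 1.29-fold and the activated libraries 1.24-fold, while the group means differed 2.75-fold. Its log2 fold change of 1.46 ± 0.22 had the smallest SE among them, with an adjusted edgeR p of 0.267 and an adjusted DESeq2 p of 1.31e-05. Cxcr5 spans 44511787 to 44561877 of chromosome 9 (minus strand) and shares 110 of its 3332 exonic bases with Bcl9l on the other strand. Bcl9l was counted 418 and 324 times in the activated libraries and 553 and 648 times in the resting libraries, the opposite order of groups.

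Ccr6, the receptor for Ccl20 found on B cells, Th17 cells and Treg of the gut, had 77.6 and 60.7 CPM in the activated libraries, against 17.4 and 27.4 CPM in the resting libraries. Its lowest activated value was 2.21 times its highest resting value (95% counting interval 2.03 to 2.42). This gave a log2 fold change of 1.62 ± 0.30, with an adjusted edgeR p of 0.284 and an adjusted DESeq2 p of 0.00018. Ccr6 spans 8236043 to 8257141 of chromosome 17 (plus strand).

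Cxcr6 and Ccr6, the first as the gene with the largest fold change and the second for a motif match in its window, are shown by the 250 bases before their start in RefSeq (GRCm38.p6, plus strand), at chr9:123806227-123806476 and chr17:8235793-8236042. For Ccr6 this is the first of 2 starts in the table. Capitals mark a match to one of 4 motifs.
Cxcr6: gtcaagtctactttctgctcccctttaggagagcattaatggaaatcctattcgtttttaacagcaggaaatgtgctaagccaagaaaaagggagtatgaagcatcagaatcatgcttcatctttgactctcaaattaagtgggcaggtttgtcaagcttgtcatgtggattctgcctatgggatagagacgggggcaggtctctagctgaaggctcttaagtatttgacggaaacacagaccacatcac
Ccr6: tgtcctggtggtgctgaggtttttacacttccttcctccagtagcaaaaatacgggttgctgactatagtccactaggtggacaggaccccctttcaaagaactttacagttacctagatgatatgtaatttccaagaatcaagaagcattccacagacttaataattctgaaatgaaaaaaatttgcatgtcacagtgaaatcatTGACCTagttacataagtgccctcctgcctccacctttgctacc
The motifs searched on both strands were the Foxo motif GTAAACA, the AP-1 motif TGACTCA, the T-box motif AGGTGT and the ROR core AGGTCA. Promoter windows were found for 7 of the 8 genes, 8 windows in all. The capitals in Ccr6 are the ROR core on the reverse strand, starting at position -44 from the start, a motif held by 14.02% of all 32851 windows of this length. Ccr4 held the AP-1 motif at -143 (4.46% of all windows). Its RefSeq start lies inside the annotated span of Ccr4. The bases checked after that start were not found in an annotated Ccr4 transcript, so this position is uncertain. No member window held the Foxo motif (3.17% of all windows) or the T-box motif (11.8%). A match describes letters and is not a bound site.

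Cxcr4, the receptor for Cxcl12 that holds cells in bone marrow and in the dark zone of germinal centres, was the exception. It had 15.8 CPM in activated A and 14.9 CPM in activated B, against 15.7 CPM in resting A and 7.18 CPM in resting B. Resting A thus lay between the activated libraries, and the groups overlapped. A log2 fold change of 0.43 ± 0.42 did not pass (edgeR adjusted p = 0.949, DESeq2 adjusted p = 0.999), and it was -0.031 without resting B and 1.09 without resting A. Cxcr4 was also the only one of the 8 with a lower value in resting B than in resting A. It spans 128588199 to 128592293 of chromosome 1 (minus strand).

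Ccr4 and Ccr8 are receptors of Treg in skin and tumours and of Th2 cells; Ccr4 binds Ccl17 and Ccl22, and Ccr8 binds Ccl1. Ccr8 had 42.6 CPM in activated A and 134 CPM in activated B, against 9.82 CPM in resting A and 37.4 CPM in resting B. Each group spanned more than 3-fold, 3.14 between the activated and 3.81 between the resting libraries, and activated A was only 1.14 times resting B (95% counting interval 1.05 to 1.23). A log2 fold change of 1.89 ± 0.81 did not pass (edgeR adjusted p = 0.621, DESeq2 adjusted p = 0.122). The fewest counts behind any value of Ccr8 were 202, in resting A, with an exact Poisson 95% interval of 175 to 232. Ccr8 spans 120092114 to 120094906 of chromosome 9 (plus strand).

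Ccr4 had 54.9 CPM in activated A and 96.4 CPM in activated B, against 13.1 CPM in resting A and 52.1 CPM in resting B. Activated A and resting B could not be told apart by counting error, their ratio being 1.05 with an interval of 0.983 to 1.13. Its log2 fold change of 1.21 ± 0.68 did not pass (edgeR adjusted p = 0.769, DESeq2 adjusted p = 0.494). Ccr4 spans 114490316 to 114504916 of chromosome 9 (minus strand).

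**Figure D2:**
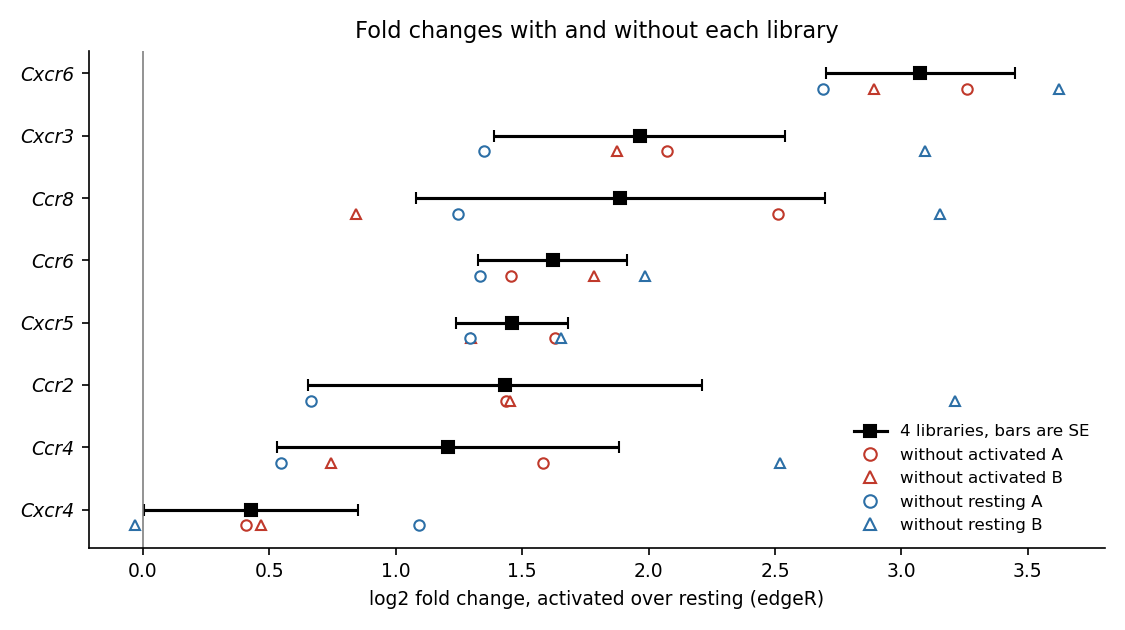
Log2 fold changes, activated over resting, of the 8 genes from edgeR; filled points with bars are the fit to 4 libraries with its SE, open points the fits with 1 library left out. Cxcr6 stays between 2.69 and 3.62 and Cxcr5 between 1.30 and 1.65, while Ccr2 ranges from 0.67 to 3.21 with the choice of resting library.

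By their spread the genes formed a pair with close replicates, Cxcr5 and Ccr6, the widely separated Cxcr6, and Cxcr3, Ccr2, Ccr4 and Ccr8, whose resting libraries differed by 3.37 to 5.89 times. In these 4, the log2 fold change was larger without resting B, at 3.09 for Cxcr3, 3.21 for Ccr2, 2.52 for Ccr4 and 3.15 for Ccr8. Without resting A it was 1.35 for Cxcr3, 0.67 for Ccr2, 0.55 for Ccr4 and 1.25 for Ccr8. The summed CPM of the 8 genes was 816 and 1023 in the activated libraries, against 160.5 and 389 in the resting libraries. By the distance between centred log2 CPM profiles over the 4 libraries, the closest pairs were Cxcr5 with Ccr6 (0.54), Cxcr3 with Ccr2 (0.65) and Ccr4 with Ccr8 (0.77). Cxcr4 and Cxcr6 were the farthest apart (3.01).

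Between genes, levels were compared as RPKM, the TMM-scaled CPM per kilobase of exon. In activated Treg Cxcr3 was the most abundant of the 8, with a mean of 153 RPKM. It was followed by Ccr8 with 74.96, Cxcr6 with 65.9, Cxcr5 with 47.5, Ccr6 with 29.8, Ccr4 with 24.4, Ccr2 with 17.98 and Cxcr4 with 8.50 RPKM. Ccr8 and Cxcr6, Ccr6 and Ccr4, and Ccr4 and Ccr2 had overlapping library values, so that their order was within the spread. In resting Treg the means ran from 39.0 RPKM for Cxcr3 to 6.33 RPKM for Cxcr4, and each gene overlapped its neighbour in the order. Cxcr6 stood at rank 3 in activated Treg and at rank 6 in resting Treg, where its mean was 7.76 RPKM.

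**Figure D3:**
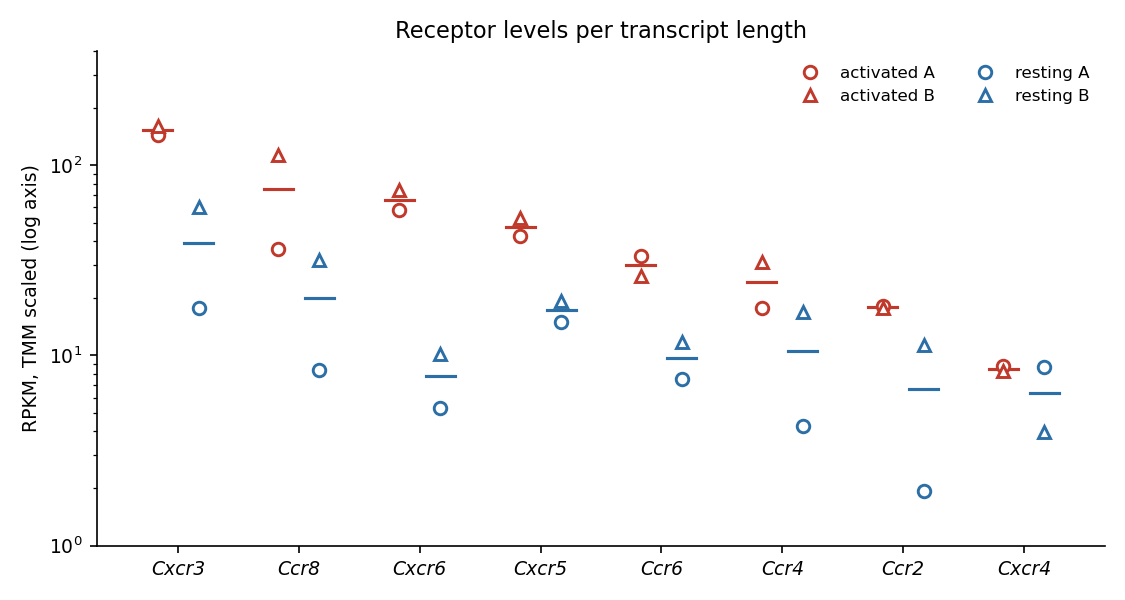
RPKM (log axis) of the 8 genes in each library, in the order of their mean in activated Treg, with the activated libraries left of the resting libraries. Cxcr3 leads with 144 and 162 RPKM in the activated libraries, and Cxcr4 is last with 8.76 and 8.24 RPKM.

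Of the 16 other chemokine receptors in the table, 9 passed the filter, and their median log2 fold change was 1.72, against 1.54 for the 8 genes. Without activated A it was 0.94, against 1.61 for the 8 genes. In 6 of the 9 both activated libraries were above both resting libraries, as for 19.8% of all genes tested. In 1, Ccr7, both were below, as for 17.4% of all genes tested. DESeq2 called 2 higher, among them Ccr9, and Ccr7 lower. Of 13959 genes, it called 324 (2.32%) higher and 118 (0.845%) lower. Ccr7, the receptor that takes T cells to the T cell zone of lymph nodes, had 286 and 199.7 CPM in the activated libraries, against 778 and 624 CPM in the resting libraries (log2 fold change -1.53 ± 0.25, DESeq2 adjusted p = 8.85e-06). Ccr9, the gut-homing receptor that plasmacytoid dendritic cells also carry, had 146 and 44.0 CPM in the activated libraries, against 25.4 and 21.3 CPM in the resting libraries.

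Cxcr6 and Ccr2 lie in a cluster of receptor genes on chromosome 9 with Ccr9, Xcr1, Ccr1, Ccr1l1 and Ccr3, from about 128 kb before to 295 kb after the start of Cxcr6. Of these 7 receptor genes 6 passed the filter, with log2 fold changes from -0.12 for Ccr3 to 3.07 for Cxcr6. In 5 of the 6 both activated libraries were above both resting ones, as for 19.8% of all genes tested. Of the 5 other genes in and beside the cluster 4 passed the filter, in none of these did the groups separate, and their log2 fold changes ran from -0.035 to 1.19. The 47 tested genes starting within 250 kb of any of the 8 members, themselves not counted, had a median log2 fold change of 0.040. DESeq2 called 2 of them, both higher, against 2.32% of all genes called higher.

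**Figure D4:**
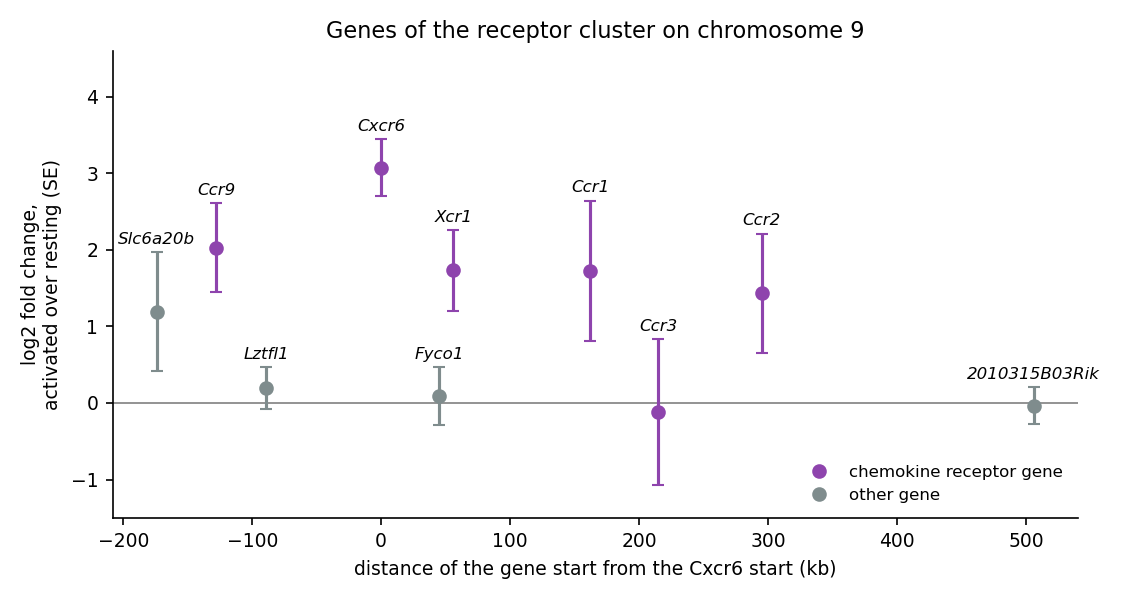
Log2 fold changes, activated over resting, with SE (vertical axis) of 6 receptor genes and 4 other genes of the cluster on chromosome 9, against the distance of each gene's start from that of Cxcr6 in kb. Receptor genes, other than Ccr3 at -0.12, lie between 1.43 and 3.07, and the other genes between -0.035 and 1.19.

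Genes whose profile over the 4 libraries was closest to each member were picked among 8208 protein-coding genes with a mean log2 CPM of at least 3. Lag3 (distance 0.32) and Maf (0.41) were closest to Cxcr3, Rnf43 (0.16) and Gabarapl1 (0.19) to Cxcr5, and Cd22 (0.38) and Serpina3g (0.55) to Cxcr6. Itgb8 (0.18) and Naip2 (0.28) were closest to Ccr6, Spock2 (0.22) and Gzmb (0.29) to Ccr8, and Zdhhc2 (0.16) to Ccr4. Lag3 encodes an inhibitory receptor of T cells, Itgb8 an integrin chain with which Treg activate TGF-beta, and Gzmb a cytotoxic granule protease. Cd22, best known as an inhibitory receptor of B cells, had 21.004 and 27.1 CPM in the activated libraries, against 2.63 and 3.92 CPM in the resting libraries. Ccr2 had Myo1f (0.59) and Cxcr3 (0.65), and Cxcr4 had Prag1 (0.12) and Trove2 (0.33). With 4 libraries such profiles have little detail, and the distances are given as a description.

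Transcription factors that direct the lineages these receptors belong to were higher in part. Of 9 tested, DESeq2 called 2 higher (2.32% of all genes) and edgeR with adjustment 0. In 6 both activated libraries were above both resting ones (19.8% of all genes tested). The median log2 fold change was 1.03. Maf, a factor of follicular and gut T cells, had 192 and 245 CPM in the activated libraries, against 35.2 and 91.7 CPM in the resting libraries (log2 fold change 1.78 ± 0.48, DESeq2 adjusted p = 0.00539). Tbx21, which encodes T-bet, had 9.26 and 12.9 CPM in the activated libraries, against 2.33 and 4.37 CPM in the resting libraries (log2 fold change 1.70 ± 0.44, DESeq2 adjusted p = 0.032). Gata3, the most abundant of the list, overlapped between the groups, with 269 and 430.03 CPM in the activated libraries and 221 and 324 CPM in the resting libraries.

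Among 12 genes of follicular T cells DESeq2 called 2 higher, Pdcd1 and Tox2 (2.32% of all genes were called higher), and edgeR 0. The median log2 fold change was 0.91. Pdcd1, which encodes the inhibitory receptor PD-1, had 261 and 559 CPM in the activated libraries, against 74.6 and 169 CPM in the resting libraries. Tox2 had 14.1 and 37.5 CPM in the activated libraries, against 0.972 and 6.07 CPM in the resting libraries. Bcl6, the defining factor of follicular T cells, had 37.4 and 47.0 CPM in the activated libraries, against 29.4 and 27.4 CPM in the resting libraries, and did not pass (log2 fold change 0.57 ± 0.21, DESeq2 adjusted p = 0.451).

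The machinery that receptors of this kind signal through gave no call. Of 21 tested genes for G protein subunits, receptor kinases, arrestins and Rac or Rap regulators, 0 passed by edgeR or DESeq2. An unadjusted edgeR p under 0.05 was found for 0 of them, and the median log2 fold change was -0.12. In 8 of the 21 both activated libraries were below both resting libraries (17.4% of all genes tested). In 2 both were above (19.8%). Rac2, the most abundant of the list, had 2779 and 3657 CPM in the activated libraries and 2897 and 3428 CPM in the resting libraries. Rap1b had the smallest unadjusted p of the list, with a log2 fold change of -0.41 ± 0.17.

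Several of the 8 receptors are also made by cells other than Treg, and the summed markers of dendritic cells moved with the groups. The summed CPM of 12 plasmacytoid dendritic cell markers was 1298 and 471 in the activated libraries, against 187 and 207 in the resting libraries. DESeq2 called 10 of the 12 higher, against 2.32% of all genes. Some of the 12, such as Klk1 (4 and 0 counts in the resting libraries), passed the filter on low counts through the activated libraries alone. The direction of such genes followed from the filter. The summed CPM of 12 conventional dendritic cell markers was 1592 and 517 in the activated libraries, against 205 and 149 in the resting libraries. In the activated libraries most of it came from H2-Aa (636 and 153 CPM) and H2-Ab1 (621 and 161 CPM). Neither was called by DESeq2 (adjusted p = 0.110 and 0.0671). DESeq2 called 4 of the 11 tested higher. Among them was Clec9a (8 and 0 counts in the resting libraries), which also passed the filter through the activated libraries alone. Siglech, a defining plasmacytoid marker, was counted 8548 and 1190 times in the activated libraries, against 16 and 8 times in the resting libraries. Within the activated group these markers were higher in activated A, with a ratio of activated B to activated A of 0.363 for the plasmacytoid sum. Among the 8 receptors that ratio was 0.783 for Ccr6, 0.941 for Cxcr4, 0.973 for Ccr2 and 1.13 for Cxcr3. It was 1.24 for Cxcr5, 1.27 for Cxcr6, 1.76 for Ccr4 and 3.14 for Ccr8. The ratio of Ccr9 was 0.300. Whether these ratios are linked was not tested.

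The sum of the 14 monocyte and macrophage markers followed libraries rather than groups. It was 699 and 108 CPM in the activated libraries and 521 and 23.5 CPM in the resting libraries. In 3 of the 14, Lyz2, Ly6c2 and Cebpb, both activated libraries were above both resting libraries (19.8% of all genes tested). Lyz2 had 105 and 25.6 CPM in the activated libraries, against 11.8 and 2.15 CPM in the resting libraries (DESeq2 adjusted p = 0.241). DESeq2 called 1 of the 14 higher (2.32% of all genes), Ly6c2. This gene had 123 and 33.1 CPM in the activated libraries, against 3.26 and 6.95 CPM in the resting libraries. The 12 B cell markers summed to 115 and 105 CPM in the activated libraries, against 51.4 and 66.1 CPM in the resting libraries, most of it from Cd79b. DESeq2 called 1 of the 11 tested lower (0.845% of all genes) and 2 higher (2.32%), Fcrla and Spib. Of these, Spib stands also in the plasmacytoid list. The 12 NK and ILC markers summed to 73.9 and 78.1 CPM in the activated libraries, against 46.2 and 56.8 CPM in the resting libraries. Of the 8 tested, 4 had both activated libraries above both resting libraries (19.8% of all genes tested). In 2, Eomes and Prf1, both were below (17.4%). DESeq2 called 1 of the 8 higher, Klrb1c. Markers of CD8 and gamma delta T cells summed to 90.1 and 45.9 CPM in the activated libraries, against 39.0 and 39.9 CPM in the resting libraries. Neutrophil markers (at most 6.15 CPM in any library) and erythroid markers (at most 27.0 CPM) were low. Of the dendritic cell lists, 1 marker of the plasmacytoid list was at 0 in resting B, and 1 and 3 markers of the conventional list were at 0 in resting A and resting B; the B cell list had no marker at 0 in any library. The part of these cells in the receptor differences was not tested beyond these values.

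**Figure D5:**
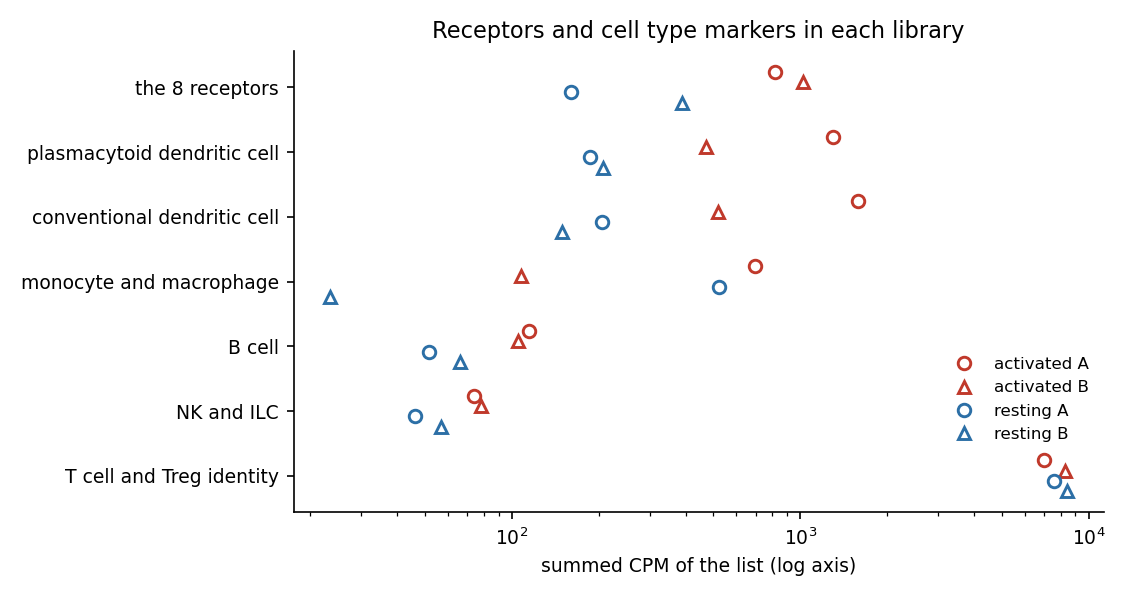
Summed CPM (log axis) of each marker list and of the 8 receptors, 1 point per library. The receptor sum is 816 and 1023 in the activated libraries and 160.5 and 389 in the resting libraries, and the plasmacytoid and conventional dendritic cell sums are highest in activated A.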

How the data were processed

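RNA from 4 sorted Treg samples had been isolated with a column kit and amplified with a template-switching kit (SMART-seq v4), per the labels' protocols. STAR 2.4.0c, featureCounts, DESeq2 and the mm10 build appear in the submitters' processing notes, without roles; annotation release, strand setting and read filters are not given there. The authors deposited raw read counts per gene and, in a second table, regularized log2 values from DESeq2. The headings of the deposited counts repeat 1 replicate number within each group, so columns were assigned to groups only; the regularized log2 table carries the numbers 1 and 2.

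Symbols, positions and exon lengths came from GENCODE M21 (mm10), which matched 37607 of 38924 identifiers. Counts were filtered with filterByExpr (minimum count 10, total 15), leaving 14235 genes, scaled by TMM and tested with edgeR 4.0.16 (R 4.3.3; quasi-likelihood, group only, prior count 2, Benjamini-Hochberg threshold 0.05). The SE was taken as the log2 fold change divided by √F. Residual degrees of freedom were 2, and the biological coefficient of variation 0.352. An exact permutation test of 2 against 2 cannot go below p = 0.333 and was not run. P-values measure the spread between these samples. DESeq2 1.42.0 and limma 3.58.1 were alternatives, with other size factors, no filter and each library left out; DESeq2 with each library left out was added after seeing the data. The edgeR and DESeq2 fits were tested on simulated data.

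The members and gene lists were chosen with earlier results of these data known. Named were all 8 members, members of small counts and, per list, those with the smallest p and the highest level, for likeness the 2 nearest genes by Euclidean distance of centred log2 CPM; other markers, Cd44 and Foxp3 were named as checks. Some genes that these rules name are not reported here. Promoter sequences are from RefSeq.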

Additional observations from a re-analysis of the deposited data

How the results depend on the processing

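edgeR called 0 genes, of 1268 with an unadjusted p under 0.05. DESeq2 called 442 genes and 4 of the 8 receptors; edgeR without the filter on low counts called 852 and 7. limma-voom, edgeR with DESeq2 size factors and limma on the regularized log values called 0. Leaving out 1 library, edgeR called 0 to 331 genes (331 when resting A was left out, 5 for resting B, 45 for activated B) and 0 to 1 receptors, Cxcr6 when resting A or resting B was left out. With 1 library left out, DESeq2 called 222 to 401 genes and 2 to 7 receptors. A group left with 1 library is assumed to vary like the other. The median log2 fold change of the receptors was 2.81 without resting B, with a range of 1.27 to 2.81 over single libraries left out, and 1.504 to 1.73 under the other settings; that of the other chemokine receptors, 1.72, was 0.94 without activated A and 0.85 on the regularized log values. The log2 fold change of Cxcr4 was -0.031 without resting B and up to 1.09 otherwise. The cause of these shifts was not tested.

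With the numbers of the regularized log table as a replicate block, limma called 1552 genes and 7 receptors, all but Cxcr4. Same-numbered samples deviated together (correlation 0.652 over 14235 genes). The labels describe independent animals, which does not settle whether a resting and an activated sample share an animal or a preparation. A pairing was therefore neither assumed nor excluded. The main fit took none, as the headings of the count columns carry no number for it. For each of the 8 receptors, libraries A and B stood in the same order within each group as samples 1 and 2. Ccr2, for example, had regularized log2 values of 8.54 and 10.9 in resting samples 1 and 2. Its counts were 268 in resting A and 2351 in resting B. A replicate block was not fitted to the counts. The activated libraries of Cxcr4 and of Ccr2 lay within counting error of each other.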

Other observations

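Chemokines that bind the 8 receptors were themselves among the transcripts. Of 14 listed ligands 5 passed the filter on low counts, some of them, such as Ccl20, through the activated libraries alone. DESeq2 called 2 higher, Ccl20 and Cxcl10 (2.32% of all genes were called higher). Markers of dendritic cells were higher in the same libraries, the plasmacytoid list at 1298 and 471 CPM in the activated libraries, against 187 and 207 CPM in the resting libraries, and the conventional list at 1592 and 517 CPM against 205 and 149 CPM; their part in the ligand values was not tested. Ccl20, the ligand of Ccr6, was counted 81 and 53 times in the activated libraries, against 2 and 4 times in the resting libraries (edgeR log2 fold change 3.81 ± 0.52, DESeq2 adjusted p = 0.000608). Cxcl10, a ligand of Cxcr3 induced by interferon, was counted 306 and 390 times in the activated libraries, against 33 and 96 times in the resting libraries (log2 fold change 2.58 ± 0.52, DESeq2 adjusted p = 0.000433). Ccl1, the ligand of Ccr8, was counted 169 and 286 times in the activated libraries, against 0 and 24 times in the resting libraries, and did not pass (edgeR adjusted p = 0.417, DESeq2 adjusted p = 0.517). All 5 stayed under 20 CPM in every library, and 3 of the listed ligands, Ccl7, Ccl8 and Ccl12, were at 0 in all 4 libraries.

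Ccr3, a receptor of eosinophils and Th2 cells in the same cluster as Cxcr6, followed libraries and not groups. It was counted 741 and 120 times in the activated libraries and 567 and 166 times in the resting libraries, with activated A and resting A high. The same 2 libraries were high for macrophage genes such as Csf1r, counted 2224 and 106 times in the activated libraries and 1526 and 76 times in the resting libraries. Whether the 2 patterns are linked was not tested.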
